A study of Arabidopsis thaliana with 12 samples.

Results

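The comparison described here sets seedlings called phod2 against control seedlings called KC, both held in the low phosphate condition P-, across all genes. Its members were the 3 phod2 P- and the 3 KC P- libraries, 6 of the 12 libraries of the series, chosen by the genotype and condition in their titles. All were made from whole Arabidopsis thaliana seedlings aged 8 days, from 1.3 µg of total RNA each, and the labels state 3 biological replicates per genotype. The other 6 libraries hold the same genotypes in P+ and were used for the shared estimate of spread and for 1 comparison of conditions. The labels spell out neither KC nor the gene altered in phod2 and give no phosphate concentration. The series' text speaks of high and low phosphate, and P- was read as the low one. In the deposited table WT stands in the headings for KC P+, which touches the P+ values, the comparison of conditions and the shared spread. With the 6 P- libraries alone, 421 genes rose and 427 fell in P-, against 466 and 513 with all 12. The series title names LIP1P, a lipoyl synthase of the plastid, in phosphate homeostasis, so the question addressed is which genes differ between phod2 and its control when phosphate is scarce.

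Plants take phosphate up through transporters of the PHT1 family, load it into the xylem through PHO1 and store it in the vacuole. When phosphate is short, the transcription factor PHR1 and its relatives, otherwise held back by SPX proteins bound to inositol pyrophosphates, switch on genes for uptake, for phosphatases that free phosphate from organic molecules and for enzymes that replace phospholipids with galactolipids and sulfolipids. The microRNA miR399 lowers the transcript of PHO2, an enzyme that marks transporters for degradation, and the non-coding RNAs IPS1 and AT4 sequester that microRNA.

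Read counts summed to between 16821084 and 22104062 in the 6 P- libraries. Levels below are read counts scaled to library size with TMM factors (CPM), listed for replicates 1, 2 and 3 in that order. They compare the same gene between libraries and are not adjusted for gene length. A gene is said to have risen or fallen, and counts as called, where it changed at least 2-fold and its adjusted p did not exceed 0.05. Differences are fitted log2 values, phod2 minus KC, with their SE. The SE was derived as the absolute difference divided by the square root of the test's F statistic. Adjusted p are from the quasi-likelihood test of edgeR, adjusted by Benjamini and Hochberg's method over 20891 tested genes. These p rest on the spread between libraries within groups, pooled over the 4 groups of 12 libraries and partly shared between genes. They do not measure the spread of the P- libraries alone. Replicate 2 of phod2 P- stood apart from its group. Its deviation from the mean of the other phod2 P- libraries fell as exonic length rose, with Spearman's rho at -0.69 over genes, each gene not being an independent replicate. Its median log2 deviation was 0.46 in the shortest of 10 equal sets of genes, with exons of at most 891 bases, and -0.66 in the longest, of at least 3186 bases. The fitted differences between phod2 and KC carried that trend at a correlation of -0.33, which was -0.038 without the library. Calls of list members that were made or lost without this library are named with their lists. Some members, including HSP21, HSP23.6, PHT1;7, PAP25, MYB90, GSTU11 and TIP3-2, reached the filter on low counts only because of the phod2 P- libraries. XTH26 reached it only because of the KC P- libraries. The counts and medians of their lists are therefore a description.

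**Figure D1:**
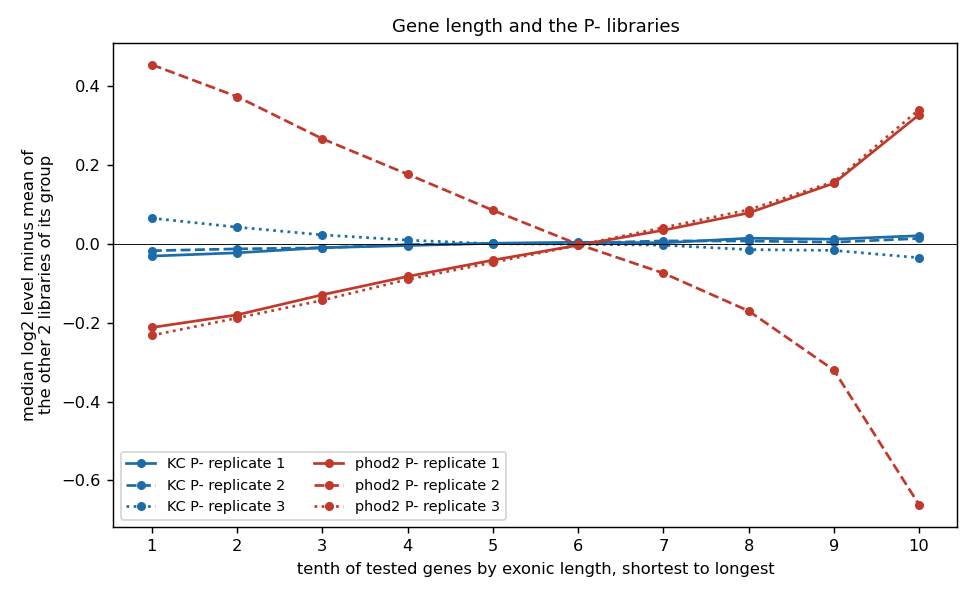
Median log2 deviation of each P- library from the mean of the other libraries of its group (y axis) over 10 equal sets of tested genes by exonic length (x axis), with KC in blue and phod2 in red. The phod2 replicate 2 line falls from 0.46 to -0.66, and the other phod2 lines mirror it because this library enters their reference.

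Between phod2 and KC in P-, 466 genes rose (2.23% of the tested genes) and 513 fell (2.46%), 979 in all (4.69%). With the p limit alone and any fold, 4712 genes (22.6%) differed. All 3 phod2 libraries lay above all KC libraries for 3818 genes (18.3%) and below them for 3903 genes (18.7%). Of the 979 called genes, 976 did not overlap between the groups. Without phod2 replicate 2, 471 genes rose and 554 fell, among them 425 of the 466 and 455 of the 513. The median difference over all tested genes was 0.0030. Over the shortest of the 10 equal sets by exonic length it was 0.20, and over the longest -0.19. List medians below, where small, are to be read against this range rather than against 0. A log2 difference of at least 2 was reached by 149 of the rises and 97 of the falls, and of at least 4 by 22 and 10.

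The 8 largest rises among named genes were taken over genes with a mean of at least 1 CPM over the 6 P- libraries and groups apart. Lack of overlap was thus a condition of the choice. These rises included several genes known from seeds. CRA1 (AT5G44120, chromosome 5, 17756238 to 17758336, minus strand), the storage protein cruciferin, stood at 0.531, 0.775 and 0.599 CPM in KC P- and 33.8, 36.9 and 34.5 in phod2 P-. The groups were apart by 5.77 ± 0.20 (adjusted p = 6.93e-10). M17, a late embryogenesis protein gene, had 328 counts over the phod2 P- libraries and 1 over the KC P- libraries, a ratio of 309.0 with a 95% counting interval of 55.0 to 12200. PER1, a seed peroxiredoxin, and TIP3-1, a water channel of seed vacuoles, differed by 3.87 ± 0.19 and 4.21 ± 0.34. OBAP1A, an oil body protein, reached the filter on low counts only because of the phod2 P- libraries. It differed by 3.80 ± 0.55 and rested on low levels, 0, 0.222 and 0.18 CPM in KC P- and 1.36, 2.5 and 1.96 in phod2 P-. Outside that group, NUDT24 (AT5G19470, chromosome 5, 6566271 to 6568806, plus strand), a nudix hydrolase, stood at 4.94, 6.26 and 4.67 CPM in KC P- and 85.3, 98.5 and 87.7 in phod2 P-, with no overlap and 4.09 ± 0.14 (adjusted p = 6.93e-10). EGC2, which encodes a secreted peptide related to natriuretic peptides, differed by 5.43 ± 0.41, and the beta-glucosidase gene BGLU19 by 4.33 ± 0.18.

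The 8 largest falls among named genes, chosen by the same limits and so with groups apart, were of mixed kinds. AGP30 (AT2G33790, chromosome 2, 14293561 to 14295353, minus strand), an arabinogalactan protein of roots, stood at 24.1, 24.5 and 24.7 CPM in KC P- and 0.544, 0.375 and 0.393 in phod2 P-. Every phod2 library lay far below every KC library, with -5.75 ± 0.16 (adjusted p = 9.59e-11). CLE5, a gene for a signalling peptide, had 148 counts over the KC P- libraries and 2 over the phod2 P- libraries, a ratio of 78.6 with a counting interval of 21.4 to 655. MRN1, the marneral synthase, stood at 11.9, 11.7 and 10.7 CPM in KC P- and 0.589, 0.812 and 0.729 in phod2 P-, and -4.02 ± 0.20 (adjusted p = 5.5e-09) separated the groups. The remaining falls under the naming rule were the defensin gene PDF1.2C (-4.16 ± 0.46), the cellulose synthase-like gene CSLB5 (-3.42 ± 0.38), the peroxidase gene PER24 (-3.30 ± 0.25), the glutaredoxin gene GRXS10 (-3.29 ± 0.28) and the methionine sulfoxide reductase gene MSRB7 (-3.13 ± 0.17). PDF1.2C has near-identical family members, so its counts may be shared among them.

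Among the genes of phosphate sensing and signalling, 4 of 16 rose and none fell, with a median of 0.17. SPX1 (AT5G20150, chromosome 5, 6802282 to 6803655, plus strand), a phosphate sensor that is itself a starvation marker, stood at 138, 127 and 139.5 CPM in KC P- and 472, 567 and 464 in phod2 P-. No phod2 library overlapped with KC, and the difference was 1.89 ± 0.081 (adjusted p = 1.86e-09). SPX3 stood at 4.94, 5.37 and 5.09 CPM in KC P- and 38.1, 49.3 and 35.2 in phod2 P- and differed by 2.99 ± 0.14. SPX2 was higher by 0.90 ± 0.068, under the 2-fold limit, while SPX4 was lower, at -0.68 ± 0.12. PHR1 stood at 49, 50.2 and 47.6 CPM in KC P- and 43.4, 53.8 and 46.9 in phod2 P- and its groups overlapped, with a difference of -0.03 ± 0.077. Its relative PHL1 differed by 0.15 ± 0.084. NLA, a ubiquitin ligase acting on transporters, was at -0.26 ± 0.12, and ITPK1, an inositol phosphate kinase, at -0.075 ± 0.057.

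Both target-mimic RNAs rose. IPS1 (AT3G09922, chromosome 3, 3050989 to 3051530, plus strand) stood at 10.9, 12.3 and 10.7 CPM in KC P- and 88.8, 131 and 88.2 in phod2 P-, and AT4 (AT5G03545, chromosome 5, 894582 to 895517, plus strand) at 111, 96.8 and 107 CPM in KC P- and 399, 464 and 383 in phod2 P-. Replicate 2 was the highest phod2 library for both, and both are among the shorter genes. Their differences were 3.18 ± 0.17 (adjusted p = 1.06e-08) and 1.99 ± 0.096 (adjusted p = 4.74e-09), and without that library they were 2.98 and 1.92. PHO2 stood at 239, 236 and 229 CPM in KC P- and 279, 146 and 279.7 in phod2 P-. In phod2 replicates 1 and 3 lay above all KC libraries and replicate 2 below them, so the groups overlapped. The difference was 0.0039 ± 0.17, or 0.27 without replicate 2 (adjusted p = 6.76e-10), where it was under 2-fold and not called. Counts on miR399 precursors were few. MIR399D (AT2G34202, chromosome 2, 14442978 to 14443077, minus strand) had 31, 18 and 14 counts in KC P- and 33, 56 and 37 in phod2 P-, a fitted difference of 0.97 ± 0.36 that missed the threshold at an adjusted p of 0.0766. MIR399C had 9 and 25 counts summed over KC P- and phod2 P-, and no count of MIR399E or MIR399F was recorded in the 12 libraries.

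The sequences behind this RNA pair are shown because both mimic RNAs, which bind this microRNA, rose. The mature strands below were read from TAIR10.1 at the positions annotated in RefSeq, 5′ to 3′, with bases 2 to 8, the seed, in capitals. All of these share 1 seed.
miR399a: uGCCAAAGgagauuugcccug
miR399b: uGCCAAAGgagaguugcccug
miR399c-3p: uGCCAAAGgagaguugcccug
miR399d: uGCCAAAGgagauuugccccg
miR399e: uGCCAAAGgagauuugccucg
miR399f: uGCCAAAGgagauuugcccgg
A search for the stretch of each mimic RNA that pairs best with any miR399 strand, with up to 4 unpaired bases opposite the middle of the microRNA, found for both a site pairing with 18 of the 21 bases of miR399b around a bulge of 3 bases. Capitals mark the paired bases. The IPS1 site lies at chr3:3051224-3051247 and the AT4 site at chr5:895149-895172, both on the plus strand.
IPS1: ttGGGCAACTtctaTCCTTTGGCA
AT4: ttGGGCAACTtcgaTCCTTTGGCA

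Of the phosphate uptake genes, 7 of 10 were tested, 2 rose and none fell, with a median of 0.73. PHT1;5 (AT2G32830, chromosome 2, 13927606 to 13929763, minus strand), a transporter of the PHT1 family, stood at 1.06, 0.997 and 1.08 CPM in KC P- and 5.76, 7.18 and 6.95 in phod2 P-, without overlap and with 2.65 ± 0.18 (adjusted p = 1.95e-07). PHT1;7 stood at 0.106, 0.665 and 0.24 CPM in KC P- and 3.13, 3.44 and 3.2 in phod2 P- and differed by 3.25 ± 0.44. It reached the filter on low counts only because of the phod2 P- libraries, so the list's count and median are a description. PHT1;4, a main root transporter under starvation, was higher in all 3 phod2 libraries, at 62.8, 62.6 and 67.8 CPM in KC P- and 119, 118 and 116 in phod2 P-, but its difference of 0.87 ± 0.078 was under 2-fold. PHT1;1 (AT5G43350, chromosome 5, 17399769 to 17402158, minus strand) went the other way. It stood at 131, 132 and 126 CPM in KC P- and 84.3, 78.5 and 91.1 in phod2 P-, lower in all phod2 libraries, at -0.62 ± 0.064 (adjusted p = 8.73e-06) and also under 2-fold. PHT1;2 was lower, at -0.59 ± 0.18. PHF1, which brings PHT1 proteins to the plasma membrane, was higher by 0.73 ± 0.081. PHT1;3 and PHT1;6 had no count in any library, and PHT1;8 was below the filter. PHT1;1, PHT1;2 and PHT1;3 are close copies, so reads may be split among them.

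Export and organelle transport genes gave 1 rise and 1 fall among 11 tested of 12, with a median of -0.047. PHO1, the xylem exporter, stood at 141, 148 and 138 CPM in KC P- and 157, 107 and 145 in phod2 P-, with overlapping groups and a difference of -0.064 ± 0.10. Without phod2 replicate 2 the PHO1 difference was 0.0997 (adjusted p = 0.0419), and with the length trend removed it was 0.066. PHO1;H1, a relative of PHO1, stood at 34.8, 33.5 and 30 CPM in KC P- and 76.8, 55.3 and 77.8 in phod2 P- and rose by 1.1 ± 0.12. G3Pp1 and G3Pp2 are named in the files for glycerol-3-phosphate permeases. G3Pp1 was at 184, 166 and 175 CPM in KC P- and 351, 296 and 353 in phod2 P-, higher in all phod2 libraries by 0.93 ± 0.075, which was called without replicate 2, at 1.02. G3Pp2 fell, at -1.89 ± 0.17, from 8.76, 8.97 and 7.79 to 1.86, 2.12 and 2.97 CPM. The plastid transporter PHT2;1 was lower, at -0.19 ± 0.06. Among transcription factors and root tip sensors, 1 of 14 rose, WRKY45, a factor known to act on PHT1;1, at 3.5, 4.71 and 2.94 CPM in KC P- and 8.57, 11.1 and 7.74 in phod2 P- and 1.29 ± 0.18 (adjusted p = 0.000127). WRKY75, WRKY6 and ZAT6 differed by -0.097 ± 0.18, -0.23 ± 0.067 and 0.29 ± 0.21, and the multicopper oxidase LPR1 and the P5-type ATPase PDR2 of the root tip by -0.31 ± 0.14 and -0.29 ± 0.12.

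Among phosphatases and ribonucleases, 10 of 17 tested members rose and none fell, and a median of 1.23. Without phod2 replicate 2 the filter on low counts asked for fewer libraries, and the count was 11, since PAP23 then passed it. PEPC1 (AT1G17710, chromosome 1, 6090405 to 6092027, minus strand), a phosphatase acting on phosphocholine and phosphoethanolamine, stood at 22.7, 21.8 and 22.4 CPM in KC P- and 152, 173 and 157 in phod2 P-. PS2 (AT1G73010, chromosome 1, 27464528 to 27466348, minus strand), a pyrophosphatase, stood at 98.2, 104 and 93 CPM in KC P- and 439, 493 and 438 in phod2 P-. In both genes the groups were several-fold apart, at 2.85 ± 0.099 (adjusted p = 6.93e-10) and 2.21 ± 0.093 (adjusted p = 1.53e-09). The purple acid phosphatases PAP17 and PAP12, of which PAP12 is secreted, rose by 1.54 ± 0.073 and 1.23 ± 0.06. PAP25, PAP14, PAP24, PAP5 and PAP22 rose from low levels, by 3.07, 1.95, 1.72, 1.33 and 1.19. RNS1, a secreted ribonuclease, stood at 4.57, 3.77 and 4.43 CPM in KC P- and 16.2, 20.7 and 17 in phod2 P- and rose by 2.07 ± 0.15. PAP26, the main vacuolar and secreted acid phosphatase, was not called, at 251, 254 and 252 CPM in KC P- and 223, 206 and 228 in phod2 P- and -0.21 ± 0.052. PAP10 was higher by 0.29 ± 0.055, and the vacuolar ribonuclease RNS2 by 0.37 ± 0.11, both under 2-fold.

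Membrane lipid remodelling gave 8 rises and no fall among 18 tested of 19, with a median of 0.86. MGD3 (AT2G11810, chromosome 2, 4743162 to 4746813, plus strand) and MGD2, galactolipid synthases of the outer plastid envelope, stood at 9.45, 8.53 and 10 CPM in KC P- and 52.2, 46.5 and 51.9 in phod2 P- and at 24.9, 24.9 and 27.5 CPM in KC P- and 81.7, 79.9 and 82.8 in phod2 P-. They rose by 2.43 ± 0.089 and 1.66 ± 0.073. The sulfolipid enzymes SQD1 and SQD2 rose by 1.09 ± 0.047 and 1.51 ± 0.068. SQD1 was at 323, 326 and 331 CPM in KC P- and 704, 682 and 703 in phod2 P-, and the spread within each group was small beside the gap. Among enzymes that break phospholipids down, the phospholipase PLDP2 rose by 1.69 ± 0.14 and the glycerophosphodiesterases GDPD1, GDPD2 and GDPD6 by 1.81 ± 0.084, 1.11 ± 0.061 and 1.17 ± 0.16. The phospholipase NPC4 and GDPD5 were higher by 0.80 ± 0.098 and 0.83 ± 0.084, under 2-fold. NPC5 had too few counts to be tested.

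**Figure D2:**
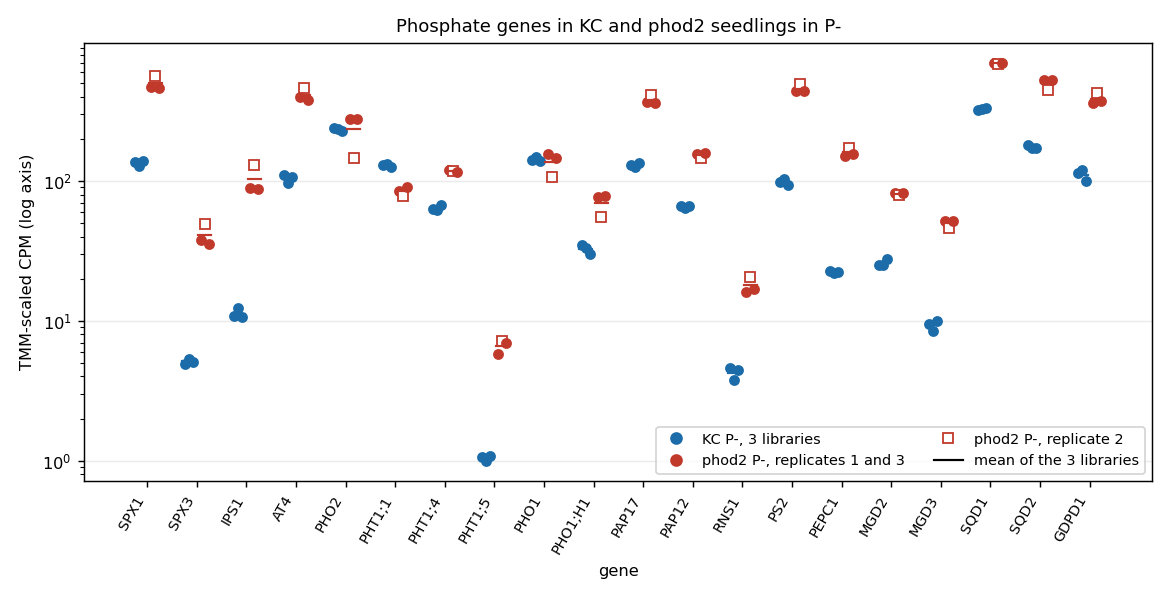
Level of 20 phosphate genes in each of the 6 P- libraries (y axis, TMM-scaled CPM on a log axis), with KC P- in blue, phod2 P- in red and its replicate 2 as open squares. SPX3, IPS1, PHT1;5 and PEPC1 show wide gaps, PHO2 and PHO1 overlap, with replicate 2 the lowest phod2 library for both, and PHT1;1 is lower in phod2.

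The phosphate genes were also looked at for the binding motif of PHR1, written GNATATNC, whose letters read the same on both strands. In the 300 bases upstream of the annotated start, taken from TAIR10.1 for 20785 tested genes, 6.6% of windows held it. The share was 15.5% of windows of risen genes (72 of 466) and 7.21% of those of fallen genes (37 of 513). It was 41.2% among the phosphatases and ribonucleases (7 of 17), 38.9% among the lipid remodelling genes (7 of 18) and 25% among the signalling genes (4 of 16). It was 28.6% among the uptake genes (2 of 7), 14.3% among the transcription factors and local sensing genes (2 of 14) and 9.09% among the export and organelle transport genes (1 of 11). Among flavonoid genes it was 10.3% (3 of 29) and among heat shock genes 5.26% (1 of 19). Genes that rose in P- and in P+ held it at 15.1% (29 of 192), and genes that rose in P- without being called higher in P+ at 15.7% (43 of 274). The windows of SPX1, IPS1 and PAP17 held no match of these letters. The G-box core CACGTG, a motif of bHLH and bZIP factors that also reads the same on both strands, was in 7.99% of all windows, in 13.9% of those of risen genes and in 5.65% of those of fallen genes. The heat shock element core GAANNTTC, likewise the same on both strands, was in 11.3% of all windows, in 31.6% of those of heat shock genes, and in 41.2% of the phosphatase and 50% of the lipid remodelling windows. A run such as GAATATTC matches both this motif and that of PHR1, so the shares overlap. They are a description of short windows and were not tested.
The windows of 4 genes that rose are printed 5′ to 3′ along the gene's strand and end at the base before the annotated start, with each match in capitals. They cover chr2:18606110-18606409 on the plus strand for SPX3, chr5:894282-894581 on the plus strand for AT4, chr1:27466349-27466648 on the minus strand for PS2 and chr3:350011-350310 on the minus strand for GDPD1 in TAIR10.1.
SPX3: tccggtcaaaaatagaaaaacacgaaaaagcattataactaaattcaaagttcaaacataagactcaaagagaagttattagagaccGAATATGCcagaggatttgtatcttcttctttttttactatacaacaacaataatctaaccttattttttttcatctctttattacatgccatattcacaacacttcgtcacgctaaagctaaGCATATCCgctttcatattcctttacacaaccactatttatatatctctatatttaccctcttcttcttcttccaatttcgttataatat
AT4: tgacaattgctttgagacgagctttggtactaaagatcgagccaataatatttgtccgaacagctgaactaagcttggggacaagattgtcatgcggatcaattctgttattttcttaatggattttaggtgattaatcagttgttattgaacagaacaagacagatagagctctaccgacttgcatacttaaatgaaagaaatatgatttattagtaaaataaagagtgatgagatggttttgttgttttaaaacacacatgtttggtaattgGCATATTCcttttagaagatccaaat
PS2: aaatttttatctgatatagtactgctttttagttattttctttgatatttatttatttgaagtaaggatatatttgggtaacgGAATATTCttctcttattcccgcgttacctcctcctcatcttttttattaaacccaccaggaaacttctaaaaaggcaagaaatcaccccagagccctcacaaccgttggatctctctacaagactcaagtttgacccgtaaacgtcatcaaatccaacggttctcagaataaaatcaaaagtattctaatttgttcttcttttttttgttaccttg
GDPD1: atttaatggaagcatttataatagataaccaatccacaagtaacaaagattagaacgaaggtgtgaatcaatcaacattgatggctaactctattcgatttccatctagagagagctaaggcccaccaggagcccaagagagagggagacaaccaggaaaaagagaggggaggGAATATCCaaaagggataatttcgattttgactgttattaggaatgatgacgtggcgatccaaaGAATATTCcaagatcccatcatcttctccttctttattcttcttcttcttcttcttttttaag

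Flavonoid and anthocyanin genes, which colour stressed leaves and stems, gave 14 rises and no fall among 29 tested of 30, with a median of 0.93. DFR and LDOX encode enzymes of the late steps. DFR (AT5G42800, chromosome 5, 17164093 to 17166032, minus strand) stood at 173, 173 and 172 CPM in KC P- and 464, 457 and 477 in phod2 P- and LDOX at 138, 139.9 and 134 CPM in KC P- and 372, 346 and 367 in phod2 P-. Their differences were 1.43 ± 0.063 (adjusted p = 2.27e-09) and 1.4 ± 0.072 (adjusted p = 8.61e-09), far beyond the spread of either group. UF3GT and UGT75C1, which add sugars to anthocyanins, rose by 1.61 ± 0.075 and 1.47 ± 0.096, the transferase 5MAT by 1.28 ± 0.078, 3AT1 by 1.32 ± 0.079 and the vacuolar import factor GSTF12 by 1.43 ± 0.11. CYP75B1, the flavonoid 3′-hydroxylase, rose by 1.81 ± 0.083. Of the regulators, MYB75 stood at 12.4, 12.8 and 9.05 CPM in KC P- and 34.1, 37.5 and 34.8 in phod2 P-, MYB90 at 0.478, 0.609 and 1.14 CPM in KC P- and 5.26, 6.12 and 5.89 in phod2 P- and TT8 at 7.86, 7.53 and 7.73 CPM in KC P- and 23.7, 23.3 and 27.2 in phod2 P-, and none of their groups overlapped. They rose by 1.63 ± 0.12, 2.96 ± 0.25 and 1.68 ± 0.13. MYB75 and MYB90 are close paralogs. MYB90 reached the filter on low counts only because of the phod2 P- libraries, so the list's count and median are a description. UGT78D2, a glucosyltransferase of the list, was higher by 0.83 ± 0.062, under 2-fold. CHS, the first enzyme of the pathway, was higher by 0.93 ± 0.092, under 2-fold, and F3H rose by 1.03 ± 0.19, but was at 0.78 and not called without phod2 replicate 2.

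Sulfate starvation and assimilation genes gave 5 rises and 1 fall among 26 tested. SULTR1;3, a sulfate transporter of the phloem, stood at 4.57, 6.32 and 5.03 CPM in KC P- and 18.6, 15.2 and 18.1 in phod2 P- and rose by 1.71 ± 0.15. LSU1, a sulfur starvation marker, stood between 20.4 and 25.5 CPM in KC P- and at 60.6, 108 and 57.9 in phod2 P-. Replicate 2 was the highest of its group by far, and the rise of 1.70 ± 0.20 was 1.37 without it. SDI1, which lowers glucosinolate synthesis, BGLU28 and SULTR3;4 rose by 1.29 ± 0.065, 1.34 ± 0.14 and 1.13 ± 0.11. SULTR1;1 and SULTR1;2 are root uptake carriers. SULTR1;1 fell, at -2.0 ± 0.24, from 3.66, 3.16 and 2.7 to 0.589, 0.874 and 0.953 CPM, and SULTR1;2 was lower, at -0.85 ± 0.056. None of the 25 glucosinolate synthesis genes was called, although their median was 0.39.

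Among iron uptake and coumarin genes, 2 of 10 fell and none rose, with a median of -0.69. CYP82C4 (AT4G31940, chromosome 4, 15451988 to 15454224, plus strand), which makes the coumarin sideretin, stood at 22, 19.8 and 23.5 CPM in KC P- and 3.13, 3.12 and 3.81 in phod2 P-, without overlap and at -2.70 ± 0.13 (adjusted p = 4.78e-09). IRT2 fell, at -1.13 ± 0.23, at -1.23 without phod2 replicate 2, and was under 2-fold without KC P- replicate 3 or without phod2 P- replicate 1. IRT1, the main iron importer of the root, stood at 50.4, 49 and 45.9 CPM in KC P- and 23.8, 27.8 and 24.1 in phod2 P-. It was lower in all 3 phod2 libraries by -0.94 ± 0.077, and called at -1.0 without replicate 2. FRO2, the ferric reductase, and AHA2, a proton pump, were lower, at -0.63 ± 0.13 and -0.76 ± 0.071. The summed level of the list lay between 813 and 834 CPM in KC P- and between 399.6 and 520.3 in phod2 P-. In the list of iron regulation, chelation and storage, 3 of 26 rose and 2 fell. The risen members, AT1G47400, AT1G47395 and AT2G30766, differed by 2.69 ± 0.33, 3.02 ± 0.34 and 1.61 ± 0.17. FER1 (AT5G01600, chromosome 5, 227953 to 230051, minus strand), a ferritin that stores iron in plastids, stood at 806, 793 and 816 CPM in KC P- and 262, 354 and 267 in phod2 P- and fell, at -1.45 ± 0.091. FER3, another ferritin, fell, at -1.0 ± 0.062, at the 2-fold limit. The list had 1 fall in place of 2 with DESeq2, with upper-quartile factors, with quantile-normalized CPM and without KC P- replicate 1 or phod2 P- replicate 1.

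Root hair genes that were called mostly fell. In whole seedlings, fewer cells of a type and less RNA per cell cannot be told apart. Of 15 root hair genes, 7 fell and 1 rose, with a median of -0.87. The expansin EXPA7 (AT1G12560, chromosome 1, 4276505 to 4277969, plus strand) stood at 13.5, 14.5 and 15.1 CPM in KC P- and 5.17, 6.25 and 4.77 in phod2 P- and LRX1, a wall protein, at 22, 26.7 and 23.8 CPM in KC P- and 10.06, 7.87 and 9.64 in phod2 P-. Neither overlapped, at -1.42 ± 0.12 (adjusted p = 1.34e-06) and -1.39 ± 0.12 (adjusted p = 1.99e-06). RSL2, a factor for hair growth, COBL9, EXPA18, ADF8 and the oxidase RHD2 fell, at -1.42, -1.22, -1.16, -1.11 and -1.14. RHD2 was at -0.99 without phod2 replicate 2. ETC1, a repressor in epidermal patterning, rose by 1.06 ± 0.27. It was the list's only rise, and none was called without KC P- replicate 1, without phod2 P- replicate 3 or with the length trend removed. The summed level of the list was between 177.6 and 189.9 CPM in KC P- and between 91.2 and 94.2 in phod2 P-.
Among root meristem, endodermis and suberin genes, 2 of 16 fell, with a median of -0.44. With the length trend removed 4 fell. CASP4, which encodes a protein of the Casparian strip, fell, at -1.31 ± 0.22, while CASP1 and CASP2 were lower, at -0.96 ± 0.095 and -0.98 ± 0.12, under 2-fold. The meristem and quiescent centre genes PLT1, PLT2 and WOX5 differed by -0.22 ± 0.23, -0.047 ± 0.26 and -0.24 ± 0.26, and the endodermal regulators SCR and SHR by -0.12 ± 0.085 and -0.079 ± 0.071. The groups of these 5 genes overlapped. The summed level of this list was between 223.0 and 230.6 CPM in KC P- and between 158.8 and 178.8 in phod2 P-.

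The marneral and thalianol clusters, which make triterpenes in roots, fell in 6 of 7 genes and were lower in all 7, with a median of -1.61. After MRN1, the marneral cluster gene CYP705A12 fell, at -1.84 ± 0.17, and so did CYP71A16, at -1.56 ± 0.12. In the thalianol cluster THAS1, the thalianol synthase, stood at 40.3, 38.1 and 39.7 CPM in KC P- and 16.1, 12.6 and 17.1 in phod2 P-. THAS1, THAD and BAHD1 fell, at -1.36 ± 0.09, -1.61 ± 0.068 and -2.24 ± 0.18, and THAH was lower, at -0.89 ± 0.073, under 2-fold. The part of the lower root marker levels in these differences, and in those of iron and sulfate uptake genes, was not tested.

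Seed storage and late embryogenesis genes rose in 7 of 8 tested members, with a median of 3.11. Several of them passed the filter on low counts through the phod2 P- libraries alone, so the count and the median are a description. The other 5 of the 13 members were at 0.125 CPM or less in every P- library. Besides CRA1 and PER1, the oleosins of seed oil bodies rose, OLEO2 at 0.531, 0.443 and 1.08 CPM in KC P- and 6.66, 7.31 and 5.94 in phod2 P- and OLEO1 at 0.371, 0.443 and 0.479 CPM in KC P- and 3.08, 3.94 and 2.97 in phod2 P-. Their differences were 3.29 ± 0.23 (adjusted p = 2.18e-07) and 2.93 ± 0.31 (adjusted p = 1.17e-05). CRU3, a cruciferin, had 103 counts in phod2 P- against 1 in KC P-, a ratio of 97.0 with a counting interval of 17.0 to 3870. The late embryogenesis genes EM6 and EM1 rose by 2.54 ± 0.21 and 1.66 ± 0.40. ECP63 was not called, at 0.71 ± 0.22. The storage albumin genes SESA1 and SESA3 had no count in any P- library. The summed level of the list was between 5.20 and 6.81 CPM in KC P- and between 64.7 and 73.8 in phod2 P-.

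**Figure D3:**
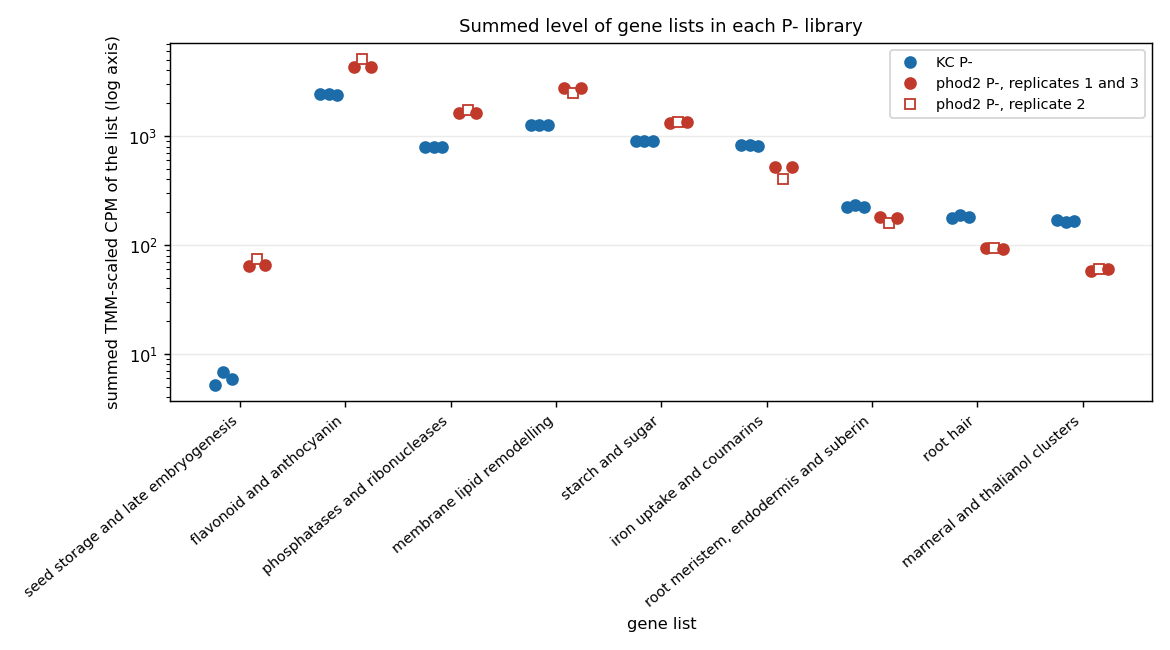
Summed level of 9 gene lists in each P- library (y axis, TMM-scaled CPM on a log axis), with KC P- in blue, phod2 P- in red and its replicate 2 as open squares. The seed list lies between 5.20 and 6.81 in KC P- and between 64.7 and 73.8 in phod2 P-, and the root hair list between 177.6 and 189.9 and between 91.2 and 94.2.

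Of 10 starch and sugar genes, 3 rose and none fell. GPT2 (AT1G61800, chromosome 1, 22824414 to 22826902, plus strand), which imports glucose 6-phosphate into plastids, stood at 8.44, 9.75 and 9.47 CPM in KC P- and 51.3, 47.9 and 54.3 in phod2 P-, at 2.47 ± 0.1 (adjusted p = 1.4e-09). APL3, a subunit of the enzyme that starts starch synthesis, stood at 67.4, 71.9 and 70.4 CPM in KC P- and 189.5, 199 and 194 in phod2 P- and rose by 1.47 ± 0.082, and the amylase BAM5 by 2.06 ± 0.10. Of 8 dark-inducible genes, 2 fell. DIN6, an asparagine synthetase, stood at 41, 37.2 and 36.1 CPM in KC P- and 12.3, 11.3 and 11.8 in phod2 P- and DIN10 at 30.7, 31 and 28.5 CPM in KC P- and 9.7, 9.06 and 10.5 in phod2 P-, with no overlap and differences of -1.69 ± 0.07 and -1.62 ± 0.063. In the nitrate list 1 of 11 fell, BT2, a scaffold protein, at -1.12 ± 0.07, and the reductases NIA1 and NIA2 differed by 0.013 ± 0.079 and -0.15 ± 0.098. None of 39 tested nuclear photosynthesis genes was called, with a median of 0.16 that was -0.014 without phod2 replicate 2.

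In the heat shock list 7 of 19 rose and none fell, with a median of 0.465. HSP21 and HSP23.6 among them reached the filter on low counts only because of the phod2 P- libraries, so the count and median are a description. HSP70, HSP101, HSP90.1, HSP18.2, BIP1 and BIP2 were among the members not called. The list's summed level was between 1635 and 1670 CPM in KC P- and between 1507 and 1787 in phod2 P-, so the groups overlapped. HSP17.6II stood at 0.796, 0.997 and 0.659 CPM in KC P- and 6.03, 6.81 and 4.82 in phod2 P- and HSP17.6A at 1.17, 0.72 and 1.02 CPM in KC P- and 7.34, 9.06 and 7.07 in phod2 P-, at 2.83 ± 0.26 (adjusted p = 8.5e-06) and 3.00 ± 0.28 (adjusted p = 3.36e-06), and the counts of this pair may be shared. The small heat shock genes HSP23.6 and HSP17.4 rose by 3.71 ± 0.50 and 2.44 ± 0.34, the factor HSFA2 by 1.06 ± 0.17 and BIP3, a chaperone of the endoplasmic reticulum, by 1.69 ± 0.33. HSP21 had 49 counts in phod2 P- against 2 in KC P-, a ratio of 23.1 with a counting interval of 6.05 to 196. Among jasmonate genes 4 of 14 rose and 1 fell. VSP2, a storage protein induced by jasmonate, stood at 96.4, 94.7 and 93 CPM in KC P- and 297, 419 and 301 in phod2 P- and rose by 1.84 ± 0.11. AOC1 and AOC2, close copies that encode an enzyme of jasmonate synthesis, rose by 1.56 ± 0.068 and 1.26 ± 0.074. JAZ5 rose by 1.05 ± 0.24 and was not called without phod2 replicate 2. PDF1.2, a defensin that needs jasmonate and ethylene, fell, at -2.23 ± 0.20, from 3.88, 3.88 and 3.71 to 0.634, 0.999 and 0.841 CPM. Among salicylate genes 4 of 17 rose and none fell, with a median of 0.325. The summed level of that list was between 137.2 and 148.8 CPM in KC P- and between 135.6 and 140.4 in phod2 P-, so the groups overlapped. PR2, a glucanase, stood at 0.531, 0.332 and 0.839 CPM in KC P- and 3.9, 3.37 and 4.32 in phod2 P- and rose by 2.77 ± 0.23, and PBS3 by 1.29 ± 0.22. SARD1 rose by 1.2 ± 0.31 but not without KC P- replicate 3. PR1 rested on 15 counts against 1 and was not called without KC P- replicate 1 or 2. Without phod2 replicate 2 the count was 5, since CYP71A13 then passed the filter, which asked for fewer libraries, and was called, at 1.63. Of 10 genes of mitochondrial dysfunction, 3 rose, NDB4, an alternative NADH dehydrogenase, by 2.61 ± 0.16, and AT2G21640 and AT5G09570 by 1.46 ± 0.15 and 1.96 ± 0.21. AOX1A, the alternative oxidase, was higher by 0.45 ± 0.07, under 2-fold.

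Gene families gave mixed counts. Of 34 tau and phi glutathione transferases, 3 rose and 3 fell. GSTF6 (AT1G02930, chromosome 1, 661088 to 662475, minus strand) stood at 102, 107 and 108 CPM in KC P- and 339, 418 and 342 in phod2 P- and rose by 1.79 ± 0.078, GSTU11 rose by 2.86 ± 0.40, and GSTF13, GSTU14 and GSTU26 fell, at -1.85 ± 0.31, -1.43 ± 0.21 and -1.30 ± 0.09. The third rise was that of GSTF12. Without phod2 replicate 2 there were 4 falls, with GSTU28 added at -1.21. Of 28 xyloglucan endotransglucosylases, which cut and rejoin wall xyloglucan, 8 fell and none rose, with a median of -0.52. XTH22, the most abundant of those that fell, stood at 164, 168 and 180.3 CPM in KC P- and 78.1, 85.3 and 75.5 in phod2 P-, at -1.1 ± 0.061 (adjusted p = 1.93e-08). XTH26, XTH21, XTH12 and XTH13 fell, at -2.06, -1.66, -1.47 and -1.26. XTH26 reached the filter on low counts only because of the KC P- libraries, so the list's count and median are a description. Without phod2 replicate 2 the count was again 8, with XTH15 in place of XTH33. Of 30 aquaporins, 2 rose, the seed isoforms TIP3-1 and TIP3-2, and 2 fell. TIP4-1 (AT2G25810, chromosome 2, 11012499 to 11014171, plus strand), a tonoplast channel, stood at 26.2, 26 and 27.1 CPM in KC P- and 8.07, 10.9 and 9.03 in phod2 P- and fell, at -1.51 ± 0.095. PIP2-4 fell, at -1.06 ± 0.14 and was under 2-fold without KC P- replicate 1 or phod2 P- replicate 1. Without phod2 replicate 2 NIP3-1 was called too, at -1.14. Of 13 day and evening clock genes, 2 fell, PRR5 at -1.32 ± 0.26 and ELF4 at -1.49 ± 0.17, while none of 13 morning genes was called.

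Of the 33 lists, 8 held no called gene. Among the 26 genes of lipoate synthesis and lipoyl-dependent complexes the median was -0.12. LIP1P itself (AT5G08415, chromosome 5, 2710781 to 2713255, minus strand) stood at 25.2, 23.9 and 24.8 CPM in KC P- and 12.9, 14.4 and 14.2 in phod2 P-. All phod2 libraries were below all KC libraries, at -0.83 ± 0.073 (adjusted p = 1.6e-06), under 2-fold. Its mitochondrial counterpart LIP1 differed by 0.15 ± 0.076. The 21 plastid fatty acid synthesis genes had a median of -0.13. The 13 tested abscisic acid and cold genes had a median of 0.038. The 78 tested plastid-encoded and 14 mitochondrion-encoded genes had medians of -0.16 and 0.022.

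**Figure D4:**
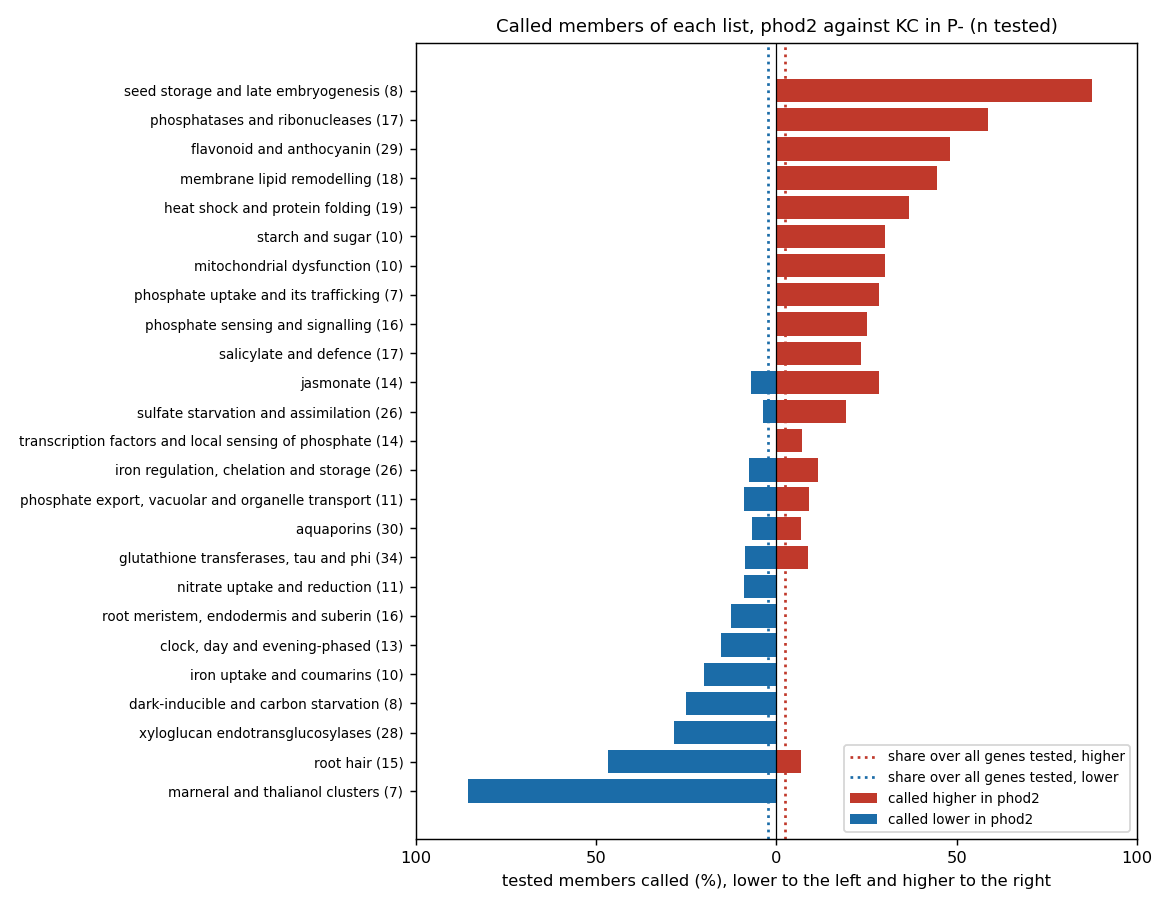
Share of tested members called higher (red, to the right) or lower (blue, to the left) in phod2 against KC in P- for the 25 lists with a call (x axis, percent), with the number tested in brackets and dotted lines at 2.23% and 2.46%, the shares over all genes tested. The seed list with 7 of 8 higher and the triterpene clusters with 6 of 7 lower lie at the ends.

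The same genotypes in P+ gave 1545 called genes (7.40%), 413 higher (1.98%) and 1132 lower (5.42%). These libraries are separate from the P- libraries. Of the 466 genes that rose in P-, 192 also rose in P+, 41.2% of the first and 46.5% of the second list. Of the 513 that fell, 374 also fell in P+, 72.9% and 33.0%. In P+ the root hair list held 10 falls of 15, with a median of -1.33, against 7 in P-. The root meristem, endodermis and suberin list held 9 of 16 (median -1.05) against 2, and the xyloglucan list 12 of 28 (median -0.81) against 8. AGP30 differed by -5.09 and NUDT24 by 4.08 in P+, and neither interaction was called. Across the 20891 genes the differences in both conditions had a Pearson correlation of 0.61 and a Spearman correlation of 0.43, given as a description. The test of the difference between conditions, P- minus P+, called 643 genes (3.08%), 500 positive (2.39%) and 143 negative (0.685%). It called 118 of the 466 rises in P-, 103 of them positive, and 80 of the 513 falls, 46 of them positive. Both sets were chosen by the P- difference, which is a term of the interaction, so these counts are a description. The P+ and P- libraries of both genotypes also differed in clock genes. The day and evening list summed to between 995.6 and 1036 CPM in P+ and between 126.7 and 152.9 in P-, and the part of this in the interaction was not tested.

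Called interactions of the phosphate lists went both ways. Phosphatases and ribonucleases held 5 positive and 2 negative, lipid remodelling 2 and 1, and uptake 1 and 0. Export and organelle transport held 1 and 1, signalling 0 and 1, and transcription factors and local sensing 3 and 0. Some phosphate markers differed less in P- than in P+. SPX1 was apart by 1.89 in P- and 3.09 in P+, PAP17 by 1.54 and 3.44, and PS2 by 2.21 and 3.92. Their interaction values were -1.2 (adjusted p = 2.52e-05), -1.90 (adjusted p = 2.54e-07) and -1.71 (adjusted p = 4.3e-05). The interactions of IPS1 and PEPC1 were not called, at -0.045 ± 0.34 and 0.041 ± 0.41. The iron uptake list held 5 negative interactions and no positive one among 10. CYP82C4 stood at 0.213, 0.327 and 0.567 CPM in KC P+ and 7.5, 7.26 and 7.08 in phod2 P+, so that it rose in P+ and fell in P-, with an interaction of -6.97 ± 0.24 (adjusted p = 9.65e-10). IRT1 and FRO2 rose in P+, by 2.73 and 3.13, and had interactions of -3.67 ± 0.13 (adjusted p = 9.65e-10) and -3.76 ± 0.23 (adjusted p = 2.38e-07). Some seed and flavonoid genes differed more in P-. CRA1 was apart by 1.83 in P+, with an interaction of 3.95 ± 0.33 (adjusted p = 4.39e-06), and CYP75B1 by -0.52, with 2.33 ± 0.14 (adjusted p = 1.93e-07). In the flavonoid list 10 of 29 interactions were called positive and none negative. MYB75 and TT8 were not among them, at 0.38 (adjusted p = 0.722) and 0.45 (adjusted p = 0.449). In the seed list 6 of 8 were called positive, a count that the filter on low counts favours and that is given as a description. All 7 marneral and thalianol genes fell in P+ and 6 in P-, and all 7 interactions were called positive, so that the gap was narrower in P-. For MRN1 the values were -4.02 in P- and -6.51 in P+.

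**Figure D5:**
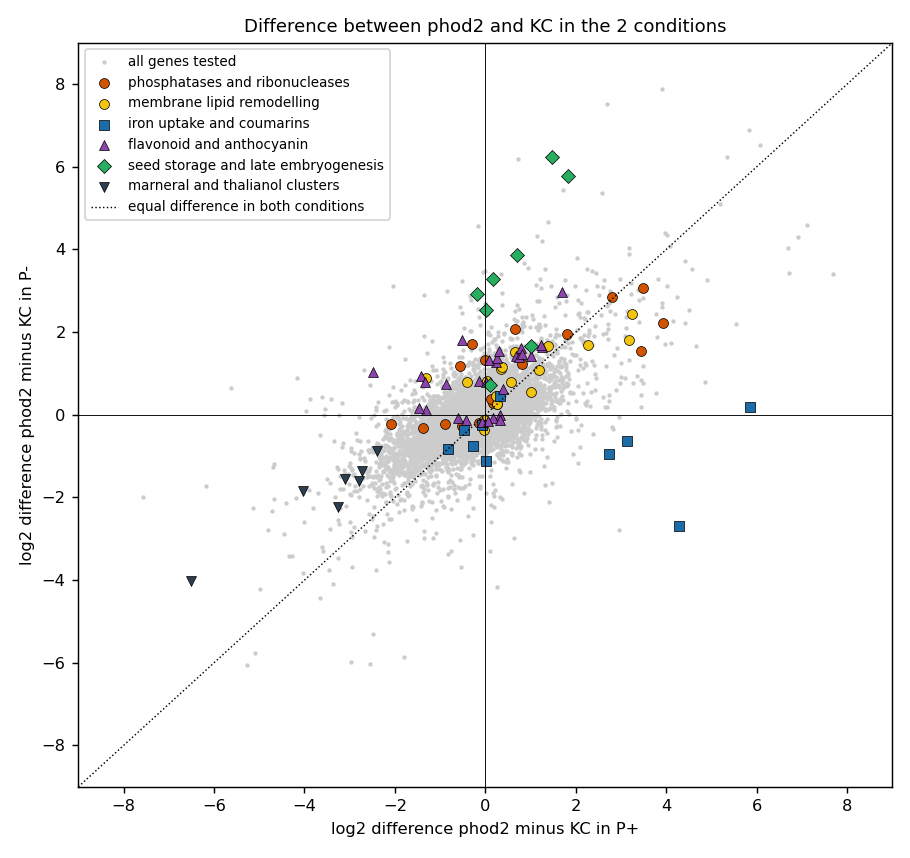
Fitted log2 difference phod2 minus KC of each tested gene in P- (y axis) against P+ (x axis), with members of 6 lists coloured and a dotted line where both are equal. CYP82C4, at 4.27 in P+ and -2.70 in P-, lies at the lower right, and the tested seed genes lie above the line.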

How the data were processed

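The authors deposited 1 table of raw read counts per gene, with FPKM columns beside them, for 12 libraries. The aligner and counter are not given in the sources used here, and the submitters' processing notes name mm10, a mouse build, although the gene IDs and coordinates are those of Arabidopsis. The deposited counts were tested as they stood. Genes passed filterByExpr with a minimum count of 10, 20891 of 32833. They were fitted with edgeR 4.0.16 in R 4.3.3 with TMM factors and 4 group means over 12 libraries, and called where the adjusted p did not exceed 0.05 and the fold reached 2. limma 3.58.1 and DESeq2 1.42.0 were alternatives, limma on the deposited FPKM, on TPM and on quantile-normalized CPM. The procedure was tested on simulated data with the same dispersion for all genes and no length trend. That test does not cover the trend of phod2 P- replicate 2. Named genes were the 8 largest rises and 8 largest falls with a symbol, a mean of at least 1 CPM over the 6 P- libraries and groups apart, up to 4 called members of each list, 4 interactions of each sign and 12 fixed genes. Further list members and miR399 precursors were named with their counts. The comparison, the members and the lists were chosen with earlier results of these data known. Counting intervals are exact at 95% and cover counting error only, and 3 counts over a P- group equal 0.056 CPM in KC and 0.0537 CPM in phod2. The counting is not stated to use strand, so antisense reads cannot be told apart, and near-identical copies may share reads. Sequences and gene positions are from RefSeq on TAIR10.1, and upstream windows were taken for 20785 tested genes whose start and end were the same in both sources. Same-numbered replicates are not paired by the labels. The result of 1 called list member is not reported here.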

Additional observations from a re-analysis of the deposited data

Results flagged for a closer look

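The difference between phod2 and KC departed between P- and P+ for 44 named genes, by the interaction term of edgeR's quasi-likelihood test with the same limits on p and fold as in the main comparison. Many of these genes were named for their P- difference, which is a term of the interaction. Values in brackets are the fitted log2 difference in P- minus that in P+. Among iron and sulfate genes these were CYP82C4 (-6.97), FRO2 (-3.76), IRT1 (-3.67), IRT2 (-1.14), SULTR1;3 (-2.25) and SULTR1;1 (-1.64). Among phosphate genes the negative values were those of PAP17 (-1.90), PS2 (-1.71), GDPD1 (-1.37) and SPX1 (-1.20), and the positive ones those of PHT1;5 (1.95), RNS1 (1.41) and WRKY45 (1.03). The remaining negative values belonged to PDF1.2C (-4.42), PDF1.2 (-2.43), DIN6 (-3.00), GRXS10 (-2.53) and NDB4 (-1.30).

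Seed genes with positive values were CRA1 (3.95), OLEO2 (3.11), PER1 (3.18) and TIP3-1 (2.96). Marneral and thalianol genes had positive values because their differences were more negative in P+, for MRN1 (2.49), CYP705A12 (2.19), THAD (1.18) and BAHD1 (1.02). Jasmonate and defence genes with positive values were AOC1 (1.13), AOC2 (1.07), VSP2 (1.25) and PR2 (3.09), and the flavonoid hydroxylase was CYP75B1 (2.33). Other positive values were those of GSTF6 (1.43), GSTU11 (3.21), GSTU14 (1.70), RSL2 (1.62), PIP2-4 (1.71), BGLU19 (3.18), EGC2 (3.72) and UGT91A1 (4.27). In CLE5 (-3.50), PR1 (3.51), M17 (3.97), ATCSLA01 (4.26) and CRU3 (4.75) at least 1 of the 4 groups held 3 counts or fewer, so that these values depend on the prior count. The part of the clock genes, whose levels differed between P- and P+, in these values was not tested.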

How the results depend on the processing

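Most settings kept the counts of 466 rises, 513 falls and 643 interactions within 1.5 times. The exceptions were limma on log2(FPKM + 1), with 238 rises, 194 falls and 354 interactions, and limma on log2(TPM + 1), an alternative chosen after seeing the data, with 263, 271 and 414. Adding 1 shrinks the fold of low genes. Leaving out 1 library gave 453 to 510 rises, 472 to 554 falls and 538 to 772 interactions. Each of these runs also loosened the filter on low counts, which follows the size of the smallest group. Without phod2 P- replicate 2, 21087 genes were tested in place of 20891. With the replicate block the counts were 460, 507 and 617. Same-numbered P- libraries deviated at correlations of 0.0619, -0.0384 and -0.0627. The phod2 P- deviations carried the length trend of replicate 2, so these values do not show whether same-numbered libraries were handled together. Removing the length trend gave 461 rises and 547 falls, of which 434 and 480 were among the original calls. No named gene reversed under any setting run. Of 105 named genes, 18 were no longer called under log2(FPKM + 1) and 8 under log2(TPM + 1). PIP2-4, IRT2, SARD1 and PR1 were lost without 1 library, as described with them. The single rise of the root hair list, ETC1, and 1 of 2 falls of the iron regulation list were also lost without 1 library. Genes under the filter on low counts were not tested at this depth.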
